A study of Bos taurus with 96 samples.

Results

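Liver of mid-lactation dairy cows was compared with liver taken from the same animals on the day after calving. The comparison held 32 of the 96 libraries of the series, which were chosen by their labels as the 16 early lactation (EL, day 1 after parturition) and the 16 mid-lactation (ML, day 147) liver libraries. Each of 16 Holstein cows gave 1 library to each side. Of these cows, 8 had good (Fert+) and 8 had poor (Fert-) genetic merit for fertility, and both genotypes were pooled. The study applied no treatment besides stage of lactation, and all cows were kept as a single herd, were in their first or second lactation, and were not bred in the lactation studied. Each library was made from polyA RNA of a punch biopsy, which holds every cell type of the liver at that site. Libraries held 15766907 to 26358063 counted read pairs. Levels are given as CPM (read pairs of a gene per 1000000 counted, scaled by TMM factors, which correct for differences in library composition), as the lowest to the highest of 16 cows with the median, and they were not corrected for gene length, so that levels of different genes were not compared. A fold change is ML relative to EL on the log2 scale, so that a positive value is a gene up-regulated at ML. A gene was called differentially expressed (DE) when its adjusted p from edgeR's quasi-likelihood test with cow as a block was under 0.05.

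The liver of a dairy cow makes nearly all of the glucose that her udder turns into lactose, from propionate, lactate and amino acids, because little glucose is absorbed from a ruminant's gut. Around calving she eats less than milk demands and mobilises body fat, so the liver takes up fatty acids, oxidises them or makes ketone bodies, and calving itself is accompanied by an inflammatory response in which the liver secretes acute phase proteins. By mid-lactation intake usually covers output and body reserves are being restored. Gene names came from the lists that the study itself printed and were known for 1769 of 13177 genes tested, which are abundant genes of liver or muscle together with genes that the study listed as differing between genotypes, so that each pathway described here is covered in part.

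Samples were checked before the comparison. The defining hepatocyte marker ALB was at 10011 CPM or more in every library, and 11 hepatocyte markers summed to 103189 to 193487 CPM (median 129916) at EL and 79688 to 220962 CPM (median 152108) at ML. Of these markers 3 were higher at ML (ALB, TTR and CYP2E1), 2 were lower (APOA1 and FGB), and the median log2 fold change was 0.30. Of 12 skeletal muscle identifiers only TTN passed the filter on low counts, and the whole list summed to at most 3.19 CPM. Of 3 erythroid identifiers only HBB passed it, and that list summed to a median of 0.928 CPM at EL and 0.494 CPM at ML. No pair of the 496 pairs of libraries held the same counts. A set of 19 genes was counted in 13 libraries of the series and hardly in the others, among them 3 EL and 3 ML liver libraries from 5 cows (33, 419, 430, 829 and 3847), called set B here. No label or header sets these libraries apart, and why they differ was not tested. Many results below are also given without these 5 cows, but counts of some lists that carry no such value changed too. Over all genes 2801 were called from the 11 other cows, against 4889 from 16.

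Libraries of cows 426, 996 and 3847 stood apart from the others. The genes DE by at least 2-fold were found again 16 times with 1 cow left out each time, and the change in the cow left out was compared with the direction in the other 15. Between 70.1% and 96.7% of these genes moved the same way in 15 of the cows, whereas cow 996, a Fert- cow, followed the others in 239 of 494 genes (48.4%). Her haptoglobin (HP) level was 1089 CPM at EL and 26625 CPM at ML, and her SCD level was 38.8 and 11.3 CPM, both opposite to most of the herd. The EL library of cow 3847, a Fert+ cow, was the lowest or the highest of the 16 EL libraries for 80 of 186 named genes, against 3 to 36 for the other cows. Of the 16 ML libraries, those of cow 996 and of cow 426, a Fert- cow, were the lowest or the highest for 64 and 64 of these genes, against 10 to 29 for the other cows. Without cow 426 4546 genes were called over the whole comparison. All 16 cows were kept, and counts that moved by more than 1.5 times without one of them are given beside the result.

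**Figure D1:**
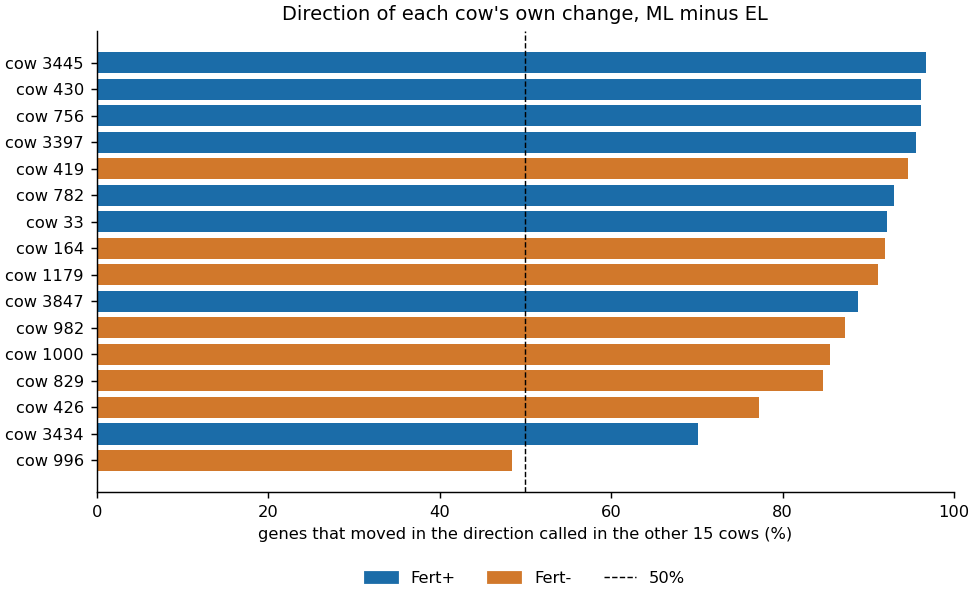
Share of genes (x axis, percent) whose ML minus EL change in a cow had the direction called in the other 15 cows, for genes DE by at least 2-fold without that cow, with 1 bar per cow coloured by genotype and a dashed line at 50%. Cow 996 sits at 48.4%, and the other bars run from 70.1% to 96.7%.

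Over the 16 cows 4889 of 13177 genes (37.1%) were DE, with 2559 up-regulated (19.4%) and 2330 down-regulated (17.7%) at ML. Counts of DE genes in the gene lists below are to be read against these shares. The median log2 fold change was -0.0023 over all genes tested, and the median size of a called change was 0.50. A change of at least 2-fold was found for 391 DE genes, 204 higher and 187 lower at ML. With library totals in place of TMM factors 66.5% of the calls were up-regulated, against 52.3%, and the median of all genes moved by 0.0585. All 16 EL values lay clear of all 16 ML values in only 4 genes (0.0304%), and INHBE was the only one of these with a gene name. The remaining 3 were found under the identifiers ENSBTAG00000000668 and ENSBTAG00000001626, lower at ML, and ENSBTAG00000008688, higher at ML.

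**Figure D2:**
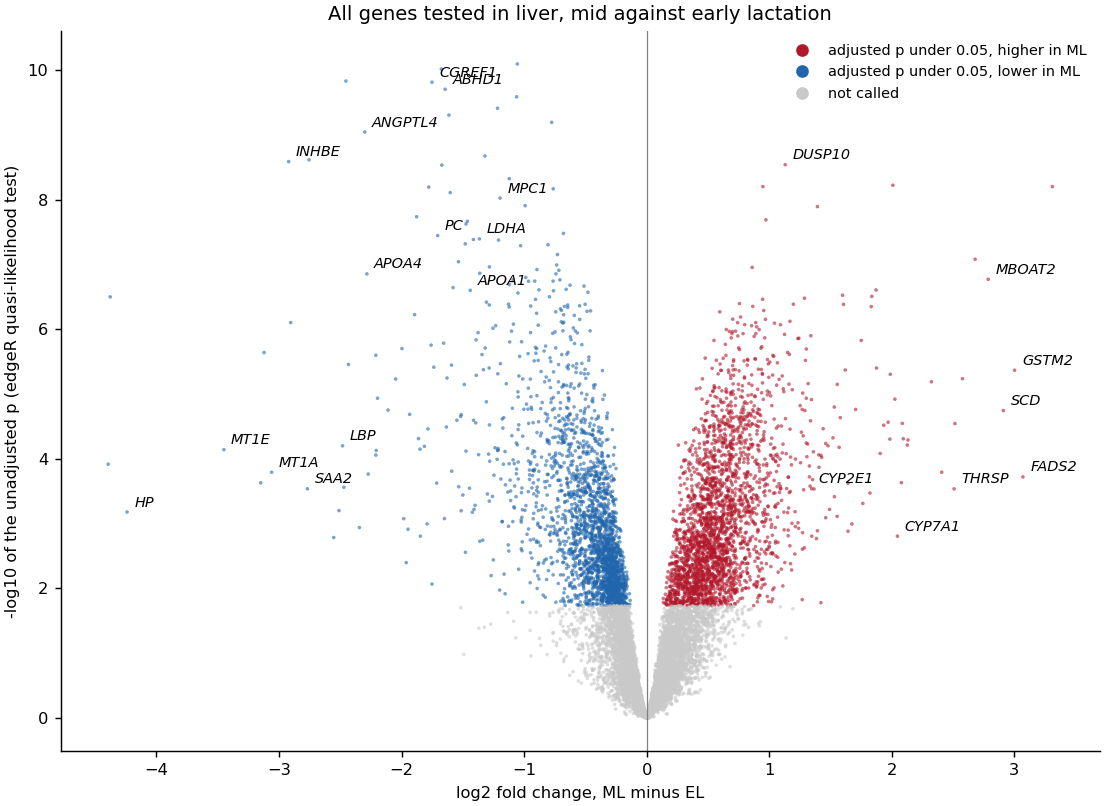
Log2 fold change (x axis, ML minus EL) against -log10 of the unadjusted p of edgeR's quasi-likelihood test (y axis), with 1 point per gene for 13177 genes and colours for DE genes. HP lies at -4.24 and FADS2 at 3.07, while ABHD1 at -1.64 and CGREF1 at -1.75 had some of the smallest p-values.

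Acute phase proteins are secreted by hepatocytes in response to inflammatory cytokines. Of 28 identifiers of positive acute phase genes, 18 were lower at ML and 0 were higher, with a median log2 fold change of -1.13 (-0.0023 over all genes). HP, which binds free haemoglobin, was at 52.4 to 53537 CPM (median 13405) at EL and 25.4 to 26625 CPM (median 438) at ML. It fell in 13 of 16 cows (log2 fold change -4.24 ± 1.04 (SE), adjusted p = 0.00485), rose in cows 426, 996 and 3434, and its ranges at EL and ML overlapped. LBP, which presents bacterial lipopolysaccharide to immune cells, was at 129 to 10219 CPM (median 943) at EL and 43.0 to 900.2 CPM (median 125) at ML and fell in 15 cows (log2 fold change -2.48 ± 0.49 (SE), adjusted p = 0.00107). The serum amyloid SAA2 ranged over 111 to 7458 CPM (median 1606) at EL and 32.8 to 3794 CPM (median 206) at ML and was lower in 15 cows (log2 fold change -2.77 ± 0.63 (SE), adjusted p = 0.0028). The ranges of LBP and SAA2 overlapped, and the ML medians of both lay below most EL values.

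Metallothioneins bind zinc and copper and are induced together with acute phase proteins. MT1A was at 19.7 to 1818 CPM (median 372) at EL and 5.55 to 511 CPM (median 25.9) at ML and fell in 15 cows (log2 fold change -3.06 ± 0.65 (SE), adjusted p = 0.00193). A copy named MT1E (ENSBTAG00000038706) changed by -3.45 ± 0.68 (adjusted p = 0.00117). FGB, the fibrinogen beta chain and a coagulation protein, was at 15325 to 113526 CPM (median 38394) at EL and 9819 to 59803 CPM (median 18486) at ML (log2 fold change -1.08 ± 0.26 (SE), adjusted p = 0.00428), and the hormone of iron withholding HAMP fell in 13 cows from a median of 109.8 to 51.4 CPM (log2 fold change -1.04 ± 0.33 (SE), adjusted p = 0.0193). Members of the SAA and MT families are near-identical copies, so that the split of reads between them is uncertain. Not every acute phase gene passed the test. SAA3 changed by -1.37 ± 0.62 (adjusted p = 0.0909) and was called without any one of cows 996 or 3434 (adjusted p 0.0313 to 0.0443), while the alpha-1-acid glycoprotein AGP was at 2141 to 52986 CPM (median 6934) at EL and 1957 to 10299 CPM (median 6694) at ML with a change of -0.34 ± 0.31 (adjusted p = 0.399) and was higher at ML in 7 cows. Without the 5 set B cows 9 of the 28 were lower, and HP (adjusted p = 0.0803), FGB (0.0724) and HAMP (0.0552) were no longer called. The median of the list was then -1.02, and the count over all genes fell as well, from 4889 to 2801.

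Negative acute phase proteins are those that the liver makes less of in inflammation. 3 of 7 were higher at ML and none was lower. TTR, which carries thyroid hormone and retinol-binding protein, was at 590.0 to 3407 CPM (median 1532) at EL and 1654 to 5002 CPM (median 3355) at ML and rose in 15 cows (log2 fold change 0.98 ± 0.21 (SE), adjusted p = 0.00219). ALB itself was at 10011 to 120601 CPM (median 57170.5) at EL and 41069.9 to 143775 CPM (median 91771) at ML, with the lowest EL value in cow 164, and rose in 12 cows (log2 fold change 0.74 ± 0.26 (SE), adjusted p = 0.0318), a call that was lost without any one of cows 756, 782, 982, 3397 or 3445 (adjusted p 0.0522 to 0.0636). The carrier AHSG rose in 14 cows from a median of 1655 to 2633 CPM (log2 fold change 0.59 ± 0.17 (SE), adjusted p = 0.0123). Without the set B cows the adjusted p was 0.061 for ALB and 0.0581 for AHSG. Complement genes were mostly not called, with C3 higher among 18 identifiers tested (log2 fold change 0.47 ± 0.15 (SE), adjusted p = 0.0228; 0.121 without the set B cows) and CFB at -0.05 ± 0.12 (adjusted p = 0.753). Without cow 996 CFD was called higher and C5 lower, and without cow 782 CFD was called higher. Of 13 coagulation genes, 2 were higher, HRG (1.24 ± 0.33) and KNG1 (0.54 ± 0.15), and 3 were lower, led by SERPINF2 (-0.47 ± 0.15) and prothrombin F2 (-0.43 ± 0.11). These shares, 15.4% higher and 23.1% lower, were near those of all genes (19.4% and 17.7%). Without the set B cows 1 coagulation gene was higher and 0 were lower.

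**Figure D3:**
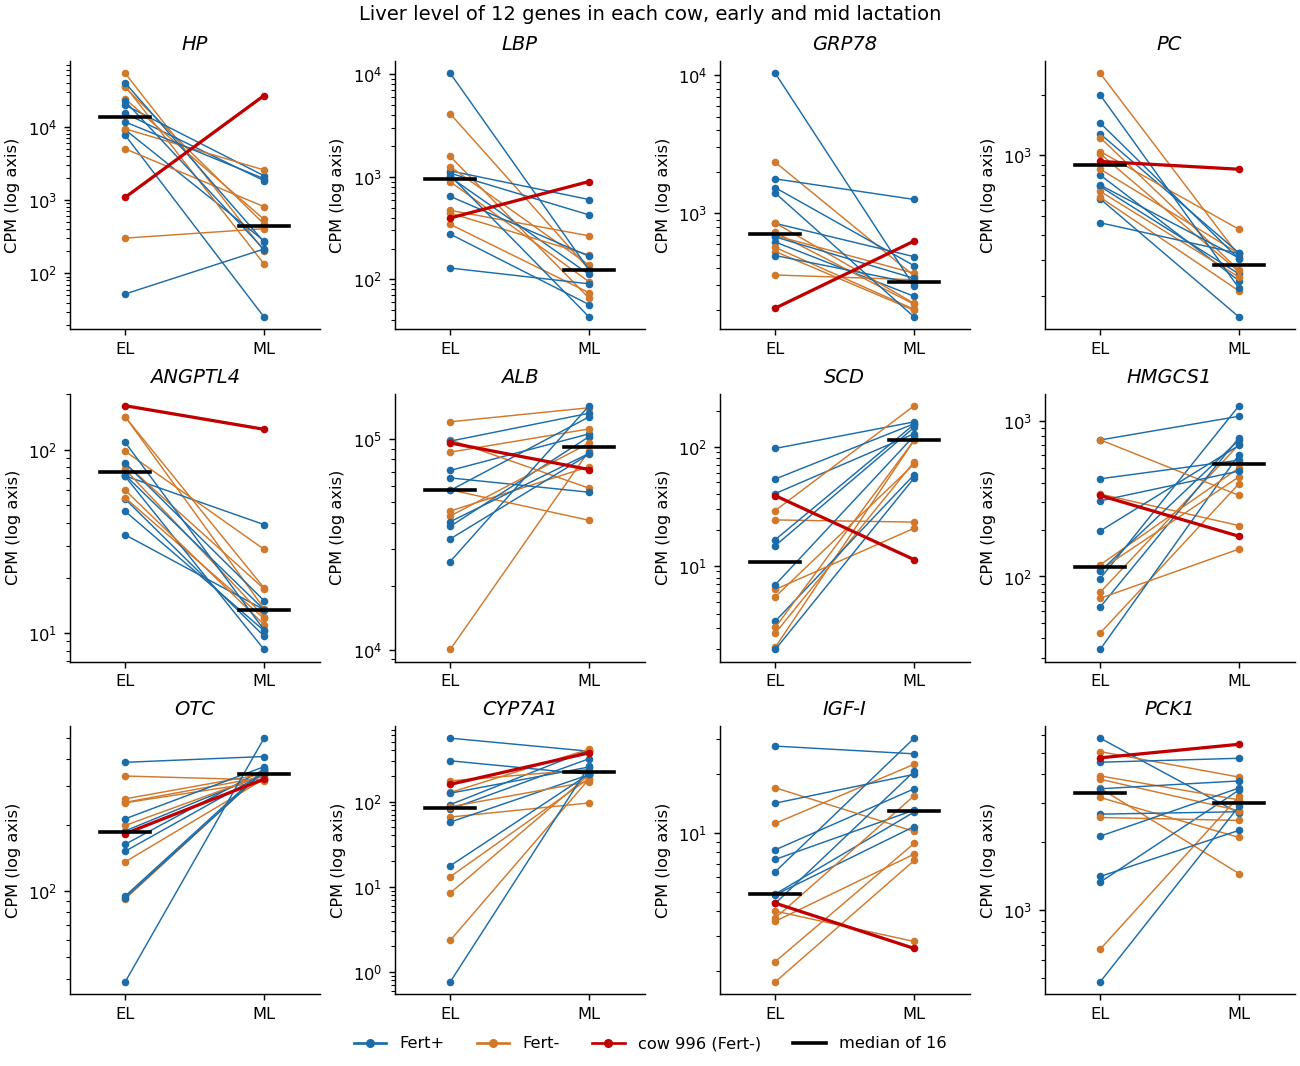
CPM at EL and ML (y axis, log scale) of 12 genes, with a line for each of the 16 cows coloured by genotype, cow 996 in red and the median of each group as a black bar. HP, LBP, GRP78, PC and ANGPTL4 slope down in most cows, ALB, SCD, HMGCS1, OTC, CYP7A1 and IGF-I slope up in most cows, and PCK1 rises in 9 and falls in 7.

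Chaperones and folding enzymes of the endoplasmic reticulum (ER) process the proteins a hepatocyte secretes and are induced when unfolded protein accumulates. Nearly all members measured were lower at ML, with 14 of 15 called, none higher, and a median of -1.18. GRP78, the main chaperone of the ER (also named HSPA5), was at 206 to 10351 CPM (median 709) at EL and 177 to 1261 CPM (median 321) at ML and fell in 15 cows (log2 fold change -1.40 ± 0.34 (SE), adjusted p = 0.00413). The highest EL value, 10351 CPM, was that of cow 3847, and without cows 996 and 3847 the change was -1.38. XBP1, a transcription factor of the unfolded protein response, was at 119 to 2224 CPM (median 367) at EL and 91.1 to 338 CPM (median 149.9) at ML (log2 fold change -1.47 ± 0.29 (SE), adjusted p = 0.00122). CRELD2 (-1.81 ± 0.36), HYOU1 (-1.51 ± 0.37) and DERL3 (-1.50 ± 0.35), which act in folding and in the disposal of misfolded protein, were lower too. Without cows 996 and 3847 14 of 15 were lower, and without the set B cows 9 of 15.

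ATF4 is the transcription factor through which ER stress and shortage of amino acids raise amino acid synthesis and tRNA charging. In a list of ATF4 and its targets 7 of 14 were lower, ATF4 itself among them, and 1 was higher (median -0.51). INHBE, which encodes the beta E subunit of activin made by hepatocytes, was at 18.3 to 232 CPM (median 56.2) at EL and 1.76 to 16.7 CPM (median 8.49) at ML, so that every ML value lay below every EL value. It fell in all 16 cows (log2 fold change -2.92 ± 0.28 (SE), adjusted p = 2.58e-06; exact sign-flip permutation p = 3.05e-05, the smallest that 16 cows can give). ASNS, asparagine synthetase, was at 10.4 to 148 CPM (median 31.7) at EL and 8.26 to 21.6 CPM (median 11.1) at ML (log2 fold change -1.52 ± 0.27 (SE), adjusted p = 0.000639), and the aminoacyl-tRNA synthetases MARS (-0.92 ± 0.20) and GARS (-0.85 ± 0.20) fell with it. PSAT1, an enzyme of serine synthesis, moved the other way, from a median of 198 to 344 CPM (log2 fold change 0.71 ± 0.20 (SE), adjusted p = 0.00968). Of 5 cytosolic and mitochondrial heat shock genes 4 were lower, among them HSPA8 (-0.64 ± 0.13) and HSP90AA1 (-0.55 ± 0.13). HSPA1A (-0.52 ± 0.18, adjusted p = 0.0292) lost its call without any one of cows 33, 164, 426, 829, 1000 or 1179 (adjusted p 0.0505 to 0.0559).

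Gluconeogenesis from lactate and amino acids passes through pyruvate carboxylase (PC), whereas propionate enters beyond that step. PC was at 462 to 2569.7 CPM (median 894) at EL and 156 to 853 CPM (median 286) at ML, fell in all 16 cows (log2 fold change -1.71 ± 0.19 (SE), adjusted p = 1.53e-05; exact permutation p = 3.05e-05). The ranges overlapped through cow 996 alone, with 934 CPM at EL and 853 CPM at ML, for the other 15 ML values reached 428 CPM and the lowest EL value was 462 CPM. Of the enzymes further along, PCK1, G6PC and FBP1 were not called. PCK1, phosphoenolpyruvate carboxykinase, was at 481 to 5795 CPM (median 3309) at EL and 1454 to 5444 CPM (median 2991) at ML (0.20 ± 0.26, adjusted p = 0.548), G6PC, which releases free glucose, changed by 0.07 ± 0.17 (0.785), and FBP1, fructose bisphosphatase, by -0.16 ± 0.20 (0.564). The serine dehydratase SDS changed by -0.87 ± 0.44 (0.12) and was highest at EL in cow 3847 with 360.5 CPM. Altogether 3 of 12 gluconeogenic genes were lower (PC, MDH1 and the coactivator PPARGC1A) and none was higher except GOT1 without cow 3445, with a median of -0.05. The share lower was 25.0%, against 17.7% of all genes, of which 37.1% were called in either direction. MDH1, the cytosolic malate dehydrogenase, changed by -0.46 ± 0.10. PPARGC1A (-0.32 ± 0.11) lost its call without any one of cows 33, 164, 419, 829, 1179 or 3445 (adjusted p 0.0512 to 0.065).

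Some other genes of pyruvate and hexose metabolism were also lower at ML. These were named for the size or p of their own change, not from a list fixed beforehand. They therefore do not speak for the pathway as a whole, of which PCK1, G6PC, FBP1 and PDK4 were not called. LDHA, a subunit of lactate dehydrogenase, was at 22 to 125 CPM (median 41.1) at EL and 9.8 to 33.1 CPM (median 16.2) at ML and fell in all 16 cows (log2 fold change -1.36 ± 0.16 (SE), adjusted p = 1.63e-05). MPC1, a subunit of the carrier that brings pyruvate into mitochondria, fell in all 16 cows from a median of 214 to 91.5 CPM (log2 fold change -1.20 ± 0.12 (SE), adjusted p = 5.42e-06), as did the lactate and pyruvate transporter SLC16A1 from a median of 39.9 to 21.3 CPM (log2 fold change -1.15 ± 0.26 (SE), adjusted p = 0.00256). UGP2, which makes UDP-glucose for glycogen, was at 298 to 1264 CPM (median 549) at EL and 181 to 399.6 CPM (median 236) at ML and fell in all 16 (log2 fold change -1.12 ± 0.14 (SE), adjusted p = 4.81e-05). PC, LDHA, MPC1, SLC16A1 and UGP2 kept their calls in each of the 16 fits without 1 cow.

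ANGPTL4, a fasting-induced inhibitor of lipoprotein lipase, was at 34.3 to 174 CPM (median 75.3) at EL and 8.13 to 129 CPM (median 13.4) at ML. It fell in all 16 cows (log2 fold change -2.30 ± 0.21 (SE), adjusted p = 1.19e-06), and the highest ML value was that of cow 996, 129 CPM, while the other 15 reached 39.0 CPM. Fatty acid oxidation genes were mixed, with 5 of 17 lower and 3 higher (median 0.30). Of all genes 17.7% were lower and 19.4% higher, against 29.4% and 17.6% in this list. Without cow 996, 5 were higher. ACADVL, the first enzyme of oxidation of very long chains, fell in all 16 cows from a median of 572 to 400.4 CPM (log2 fold change -0.57 ± 0.09 (SE), adjusted p = 0.000218). ACSL1, which activates long-chain fatty acids, fell in 15 cows from a median of 742 to 410.2 CPM (log2 fold change -0.78 ± 0.13 (SE), adjusted p = 0.000446), and HADHA of the trifunctional protein changed by -0.44 ± 0.14. By contrast HADH (0.69 ± 0.19) and ACAA2 (0.58 ± 0.17), which act on shorter chains, and the fatty acid binding protein FABP1 (log2 fold change 0.94 ± 0.29 (SE), adjusted p = 0.0165) were higher at ML. FABP1 was not called without the set B cows (0.0709). PDK4, an inhibitor of pyruvate oxidation, changed by 0.27 ± 0.25 (0.41).

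Fatty acid synthesis and desaturation were strongly up-regulated at ML. Of 11 lipogenic genes 7 were higher and 1 was lower, with a median of 1.82, the highest of the 29 pathway lists. FADS2, the delta-6 desaturase, was at 11.1 to 1708 CPM (median 180.0) at EL and 192 to 2429 CPM (median 1565) at ML and rose in 14 cows (log2 fold change 3.07 ± 0.67 (SE), adjusted p = 0.00214). SCD, which makes monounsaturated fatty acids, was at 2 to 96.4 CPM (median 10.9) at EL and 11.3 to 219.6 CPM (median 113) at ML and also rose in 14 cows (log2 fold change 2.91 ± 0.51 (SE), adjusted p = 0.00057). ACSS2, which activates acetate, the main lipogenic carbon of ruminants, rose from a median of 11.2 to 74.8 CPM (log2 fold change 2.13 ± 0.42 (SE), adjusted p = 0.00106), and THRSP, a regulator of lipogenesis, rose from a median of 1.7 to 13.1 CPM (log2 fold change 2.51 ± 0.57 (SE), adjusted p = 0.0028).

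FASN, fatty acid synthase, was at 6.65 to 72.8 CPM (median 13.8) at EL and 11.6 to 150.0 CPM (median 76.5) at ML and rose in 14 cows (log2 fold change 1.93 ± 0.36 (SE), adjusted p = 0.000731). ACACA, the carboxylase that feeds it, was at 10.6 to 57.2 CPM (median 24.8) at EL and 26.1 to 115 CPM (median 47.0) at ML and rose in 15 cows (log2 fold change 0.91 ± 0.17 (SE), adjusted p = 0.000742). The ranges of all these genes overlapped between EL and ML. Cow 33 had the most SCD and FASN at EL, 96.4 and 72.8 CPM, and cow 996 had a FASN level of 26.7 CPM at EL and 11.6 CPM at ML. ELOVL5, an elongase of polyunsaturated fatty acids, was the member that fell, from a median of 303 to 188 CPM (log2 fold change -0.71 ± 0.20 (SE), adjusted p = 0.0106). Without the set B cows 8 of 11 were higher.

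Cholesterol synthesis was higher as well, in 6 of 8 genes (median 0.97). HMGCS1, an early enzyme of the route, was at 34.0 to 753 CPM (median 114) at EL and 149.9 to 1246 CPM (median 528) at ML and rose in 13 cows (log2 fold change 1.67 ± 0.43 (SE), adjusted p = 0.00638). DHCR7, which acts at the end of the route, rose too (log2 fold change 1.15 ± 0.31 (SE), adjusted p = 0.00855). SQLE, squalene epoxidase, was not called (0.71 ± 0.28, adjusted p = 0.0506) except without any one of cows 426, 996 or 1000 (adjusted p 0.0202 to 0.0298). With the 11 cows outside set B 1 of 8 was called, HMGCS1 had an adjusted p of 0.0768 and DHCR7 of 0.0912, and the median was 0.84.

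Bile acid synthesis is the route by which cholesterol leaves the body. 4 of 6 genes were higher at ML and none was lower (median 0.66). CYP7A1, its rate-limiting enzyme, was at 0.761 to 555 CPM (median 84.0) at EL and 96.2 to 411 CPM (median 224) at ML and rose in 14 cows (log2 fold change 2.05 ± 0.55 (SE), adjusted p = 0.00864). The lowest EL values were 0.761 CPM in cow 3847 and 2.34 CPM in cow 164. AKR1D1, which reduces the sterol ring, rose from a median of 257 to 364 CPM (log2 fold change 0.62 ± 0.19 (SE), adjusted p = 0.0159), and CYP27A1 rose by 0.46 ± 0.15 (0.107 without the set B cows). The bile acid importer SLC10A1 (0.78 ± 0.29, adjusted p = 0.0408) lost its call without any one of cows 164, 419, 430, 756, 782, 1179, 3397 or 3445 (adjusted p 0.0551 to 0.0764).

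Of 13 lipoprotein genes 3 were lower (23.1%) and 2 were higher (15.4%), with a median of 0.03. These shares were near the 17.7% and 19.4% of all genes. APOA4, a component of triglyceride-rich particles and HDL, was at 25.6 to 893 CPM (median 314) at EL and 22.5 to 429.8 CPM (median 48.6) at ML and fell in 15 cows (log2 fold change -2.28 ± 0.28 (SE), adjusted p = 3.86e-05). APOA1, the main HDL protein, was at 144 to 1004 CPM (median 466) at EL and 85.3 to 404 CPM (median 171) at ML and fell in all 16 cows (log2 fold change -1.44 ± 0.19 (SE), adjusted p = 5.24e-05). APOC2, the activator of lipoprotein lipase, fell in 14 cows (log2 fold change -0.71 ± 0.15 (SE), adjusted p = 0.00166), while APOC3, an inhibitor of that enzyme, rose in 14 (log2 fold change 0.63 ± 0.18 (SE), adjusted p = 0.0134). APOA2 (0.45 ± 0.17, adjusted p = 0.048) kept its call in 6 of the 16 fits without 1 cow, and 5 genes were lower without cow 3847, LCAT and APOA5 being added. Without the set B cows APOA2 was not called (0.0675).

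Genes of nitrogen metabolism that were called were nearly all higher at ML, but most were not called. OTC, the urea cycle enzyme that makes citrulline, was at 38.6 to 386 CPM (median 186) at EL and 316 to 498 CPM (median 343) at ML and rose in 15 cows (log2 fold change 1.05 ± 0.22 (SE), adjusted p = 0.00153). GLUD1, glutamate dehydrogenase, rose from a median of 1102 to 1576 CPM (log2 fold change 0.55 ± 0.16 (SE), adjusted p = 0.0127). CPS1, the first enzyme of the cycle, was at 1710.3 to 5936 CPM (median 3787) at EL and 3326 to 5908 CPM (median 4632) at ML and higher in 13 cows, but missed the threshold (0.30 ± 0.14, adjusted p = 0.0908), as did ASS1 (0.31 ± 0.15, 0.116). Thus 2 of 6 urea cycle genes were called (median 0.30), a share of 33.3% against 37.1% of all genes. Of 25 genes of amino acid breakdown 7 were higher and 1 was lower (median 0.36), with 12 higher without cow 3847. HIBADH of valine breakdown was at 78.2 to 493 CPM (median 315) at EL and 361 to 617 CPM (median 477) at ML and rose in all 16 cows (log2 fold change 0.77 ± 0.16 (SE), adjusted p = 0.00133). TDO2, which opens the ring of tryptophan, changed by 0.65 ± 0.19, and GAMT, of creatine synthesis, by 0.61 ± 0.17. GNMT, which disposes of methyl groups, was the member lower at ML (-1.20 ± 0.42, adjusted p = 0.0327), and that call was lost without any one of cows 164, 419, 782, 1179, 3445 or 3847 (adjusted p 0.0502 to 0.0659) and without the set B cows (0.0665).

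Genes of drug and alcohol metabolism, which act on foreign compounds, steroids and retinoids, were higher in 16 of 29 cases and lower in 0 (median 0.59). GSTM2, a glutathione transferase, was at 1.19 to 151 CPM (median 30.1) at EL and 113 to 468 CPM (median 219) at ML and rose in all 16 cows (log2 fold change 3.0 ± 0.47 (SE), adjusted p = 0.000244). CYP2E1, which oxidises ethanol and acetone, was at 91.2 to 5569 CPM (median 2196) at EL and 3994 to 7762 CPM (median 5029) at ML and rose in all 16 (log2 fold change 1.35 ± 0.30 (SE), adjusted p = 0.0028). ADH4, an alcohol dehydrogenase, rose in all 16 from a median of 658 to 1418 CPM (log2 fold change 1.30 ± 0.25 (SE), adjusted p = 0.00103), and CYP2C19 in 14 from a median of 616 to 1519 CPM (log2 fold change 1.64 ± 0.44 (SE), adjusted p = 0.00762). GSTM4 (1.34 ± 0.23) and, outside the list, GSTT3 (1.05 ± 0.25) rose in every cow. Glutathione transferases have close copies, so that the value of each is uncertain. Without cow 3847 UGT2B4 and CYP4F2 were called lower. In the antioxidant list 4 of 10 were lower, led by the plasma glutathione peroxidase GPX3 (log2 fold change -2.55 ± 0.70 (SE), adjusted p = 0.00894) and SRXN1 (log2 fold change -0.93 ± 0.20 (SE), adjusted p = 0.00185), whereas catalase CAT was at 323 to 7931 CPM (median 4541) at EL and 4653 to 9915 CPM (median 7702) at ML and rose in 14 cows (log2 fold change 1.0 ± 0.28 (SE), adjusted p = 0.0101). HMOX1 lost its call without any one of cows 756 or 3445 (adjusted p 0.0528 to 0.055) and TXN without any one of cows 33, 426, 756, 782, 3397, 3445 or 3847 (adjusted p 0.0521 to 0.0725), and GPX3 had an adjusted p of 0.0683 without the set B cows.

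IGF-I is made in liver under the control of growth hormone, and its hepatic level is known to fall when a cow is short of energy. IGF-I was at 1.75 to 27.7 CPM (median 4.88) at EL and 2.59 to 30.4 CPM (median 12.9) at ML, rose in 12 cows and fell in 4 (log2 fold change 0.97 ± 0.24 (SE), adjusted p = 0.00511). It was the only 1 of 7 genes of this axis that was called (median 0.14). IGFBP2, a binding protein, was at 268 to 2625 CPM (median 1108) at EL and 826 to 2345 CPM (median 1488) at ML (0.53 ± 0.21, adjusted p = 0.0573) and was called without any one of cows 33, 419 or 430 (adjusted p 0.038 to 0.0475), and IGFBP1 changed by -0.56 ± 0.31 (0.159), IGF2 by -0.07 ± 0.12 (0.647) and SOCS2, a feedback inhibitor induced by growth hormone, by 0.28 ± 0.16 (0.184). IGFBP4 was called lower without cow 996 or without cow 3847.

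Glucocorticoids rise at calving. Of 6 genes known to respond to them FKBP5, a chaperone of their receptor, fell in 14 cows from a median of 36.7 to 12.6 CPM (log2 fold change -1.41 ± 0.26 (SE), adjusted p = 0.000672), ANGPTL4 fell, and HSD11B1, which regenerates cortisol within the cell, rose in 15 cows from a median of 421 to 750.2 CPM (log2 fold change 0.91 ± 0.17 (SE), adjusted p = 0.00068). DDIT4, another member, was called higher without any one of cows 782, 3434 or 3847 (adjusted p 0.00396 to 0.0444). Of 12 immediate early genes MAFF (-0.99 ± 0.24) and MYC (-0.78 ± 0.23) were lower, a share of 16.7%, near the 17.7% of all genes. NR4A1 was called higher without cow 164, and MYC had an adjusted p of 0.0527 without the set B cows. None of 3 circadian genes was called by edgeR, with PER1 at 0.15 ± 0.23 (adjusted p = 0.618) and NR1D1 at -0.38 ± 0.21 (0.16). Of 29 cell cycle genes 1 was called, the spindle factor TPX2, which fell in all 16 cows from a median of 7.8 to 3.92 CPM (log2 fold change -0.95 ± 0.13 (SE), adjusted p = 6.87e-05), while the proliferation marker MKI67 was at 0.802 to 26.9 CPM (median 5.25) at EL and 2.15 to 17.7 CPM (median 6.85) at ML (0.20 ± 0.37, 0.705). HAMP was the single iron gene called of 7, FTH1 changed by 0.21 ± 0.11 (0.131), and HPX, which binds haem, was called without cow 996 (adjusted p 0.0185).

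Genes of the basic machinery had medians near that of all genes. Nuclear genes of the respiratory chain had a median of -0.09, with 10 of 71 lower (14.1%, against 17.7% of all genes). Among these were UQCRB (-0.49 ± 0.11) and NDUFA5 (-0.38 ± 0.08). SDHB was higher (0.32 ± 0.11), a call lost without cow 164 (adjusted p 0.0569). With library totals 3 were lower and 3 were higher, without the set B cows 1 and 0, and in the 16 fits without 1 cow between 5 (cow 3445) and 16 (cow 996) were lower. In the ribosomal list 17 of 77 were lower (median -0.17), a share of 22.1% against 17.7% of all genes. The lower members were led by RPLP2 (-0.59 ± 0.11) and RPL3 (-0.42 ± 0.10). The count was 6 with library totals, 10 without the set B cows, 11 without cow 33 and 30 without cow 996. The only higher member, RPS6KA1 (0.50 ± 0.10), is a kinase that the name pattern had taken in. Of 15 proteasome genes PSMD7 (-0.35 ± 0.08) and PSMB5 (-0.28 ± 0.10) were lower and PSMB9 of the immunoproteasome was higher (0.43 ± 0.15), with PSMC2, PSMC3 and PSMC5 making 5 lower without cow 996 and none called without the set B cows. PSMB5 lost its call without 1 cow in 10 of 16 fits and PSMB9 in 4. Of 13 mitochondrially encoded genes ND1 was higher (0.36 ± 0.13), a call lost without any one of cows 33, 756, 782 or 3397 (adjusted p 0.0521 to 0.0604).

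**Figure D4:**
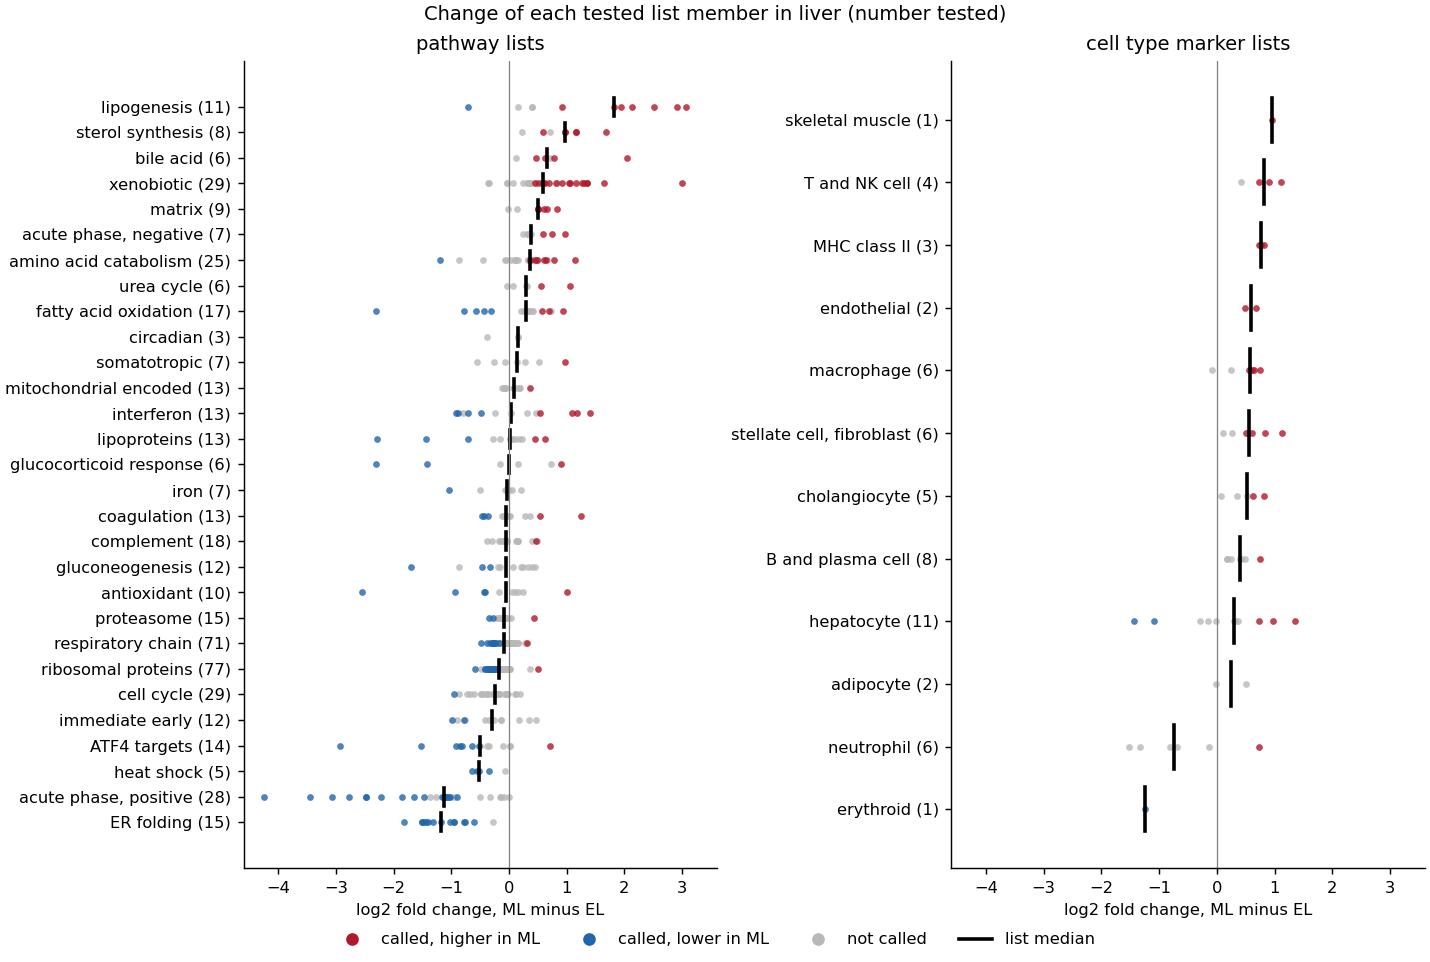
Log2 fold change (x axis, ML minus EL) of each tested member of the pathway lists (left) and cell type marker lists (right), with the number tested in brackets, DE genes coloured and the list median as a black bar. Medians of the pathway lists run from -1.18 for ER folding to 1.82 for lipogenesis, and in most marker lists of immune, endothelial and stellate cells the median is positive.

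Among markers that could be tested, those of macrophages, MHC class II, T and NK cells, endothelium (2 genes) and stellate cells were mostly higher at ML. Most B cell, neutrophil and bile duct markers were not called. In bulk tissue fewer cells of a type and less RNA per cell cannot be told apart. Of 6 macrophage markers 4 were higher, and the list summed to 499 to 1551 CPM (median 861) at EL and 912 to 1844 CPM (median 1334) at ML. CD5L, made by Kupffer cells, was at 80.3 to 293 CPM (median 176) at EL and 191 to 452 CPM (median 281) at ML and rose in 15 cows (log2 fold change 0.75 ± 0.12 (SE), adjusted p = 0.000366), and C1QA, a chain of complement C1q, rose in all 16 from a median of 201 to 300.0 CPM (log2 fold change 0.61 ± 0.11 (SE), adjusted p = 0.000703), with C1QB (0.64 ± 0.12) and C1QC (0.55 ± 0.11). All 3 MHC class II genes rose, with CD74 at 172 to 518 CPM (median 334) at EL and 389 to 1256 CPM (median 586) at ML (log2 fold change 0.77 ± 0.14 (SE), adjusted p = 0.00071), BOLA-DRA at 0.82 ± 0.15 and BOLA-DMA at 0.73 ± 0.16. Of 4 T and NK cell markers 3 were higher, namely GZMA (log2 fold change 1.11 ± 0.22 (SE), adjusted p = 0.00104), CD8B (0.90 ± 0.17) and TRBC2 (0.72 ± 0.21), at levels that summed to 4.34 to 9.68 CPM (median 6.46) at EL and 4.35 to 19.8 CPM (median 12.3) at ML. These 3 lists kept their counts without cows 996 and 3847 and without the set B cows.

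Of 10 endothelial markers listed only 2 had a gene name here, and both were higher. TEK rose from a median of 54.6 to 74.0 CPM (log2 fold change 0.49 ± 0.10 (SE), adjusted p = 0.00136) and VWF from a median of 10.6 to 15.9 CPM (log2 fold change 0.69 ± 0.21 (SE), adjusted p = 0.0165; 0.104 without the set B cows). Matrix genes were higher in 6 of 9 cases (median 0.51), and 4 of 6 stellate cell and fibroblast markers, 3 of which are also matrix genes, were higher with a sum of 115 to 283 CPM (median 161) at EL and 104 to 483 CPM (median 223) at ML. SPARC, a collagen-binding protein, was at 71.3 to 236 CPM (median 95) at EL and 76.4 to 463 CPM (median 144) at ML (log2 fold change 0.66 ± 0.15 (SE), adjusted p = 0.00329), DCN rose in 14 cows (log2 fold change 0.50 ± 0.12 (SE), adjusted p = 0.00357), and the pericyte gene RGS5 rose from a median of 3.79 to 6.79 CPM (log2 fold change 1.13 ± 0.20 (SE), adjusted p = 0.000656). COL1A1, the chain of type I collagen, was at 5.99 to 65.1 CPM (median 11.3) at EL and 7.3 to 90.7 CPM (median 23.1) at ML (log2 fold change 0.83 ± 0.29 (SE), adjusted p = 0.031), and its call was lost without any one of cows 419, 426, 430, 756, 829, 3397 or 3847 (adjusted p 0.0557 to 0.0641). LOXL1 (0.51 ± 0.19) lost its call without 1 cow in 9 of 16 fits. Without the set B cows 2 of 9 matrix genes and 2 of 6 stellate markers were called. Bile duct markers KRT19 (0.82 ± 0.21) and CFTR (0.62 ± 0.16) were higher among 5 tested, with EPCAM at 0.07 ± 0.12 (adjusted p = 0.663), and the list summed to 18.1 to 77.9 CPM (median 32.9) at EL and 20.9 to 70.6 CPM (median 41.9) at ML. KRT19 had an adjusted p of 0.0834 without the set B cows. How far the share of these cells in the biopsy moved with the gene groups above was not tested.

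Of 8 B and plasma cell markers BANK1 was called (log2 fold change 0.75 ± 0.12 (SE), adjusted p = 0.000246), and IGHG1 (0.24 ± 0.29, 0.537) and IGHM (0.18 ± 0.19, 0.466) were not, with 5 members called higher without cow 982. Neutrophil markers passed the filter in 6 of 17 cases and summed to 16 to 356 CPM (median 31.4) at EL and 19.9 to 183 CPM (median 42.2) at ML. S100A12 was at 1.47 to 150.4 CPM (median 3.8) at EL and 1.69 to 8.42 CPM (median 3.78) at ML (-0.81 ± 0.48, 0.186), and LTF was higher (log2 fold change 0.73 ± 0.23 (SE), adjusted p = 0.019; 0.104 without the set B cows). S100A8, S100A9 and FCNB were called lower without cow 426, 1 or more of these also without cow 430, 782, 829, 996, 1179 or 3434, and none without cows 996 and 3847. Erythroid HBB was lower (log2 fold change -1.25 ± 0.38 (SE), adjusted p = 0.0153) at a median under 1 CPM, and TTN of skeletal muscle was higher (log2 fold change 0.96 ± 0.32 (SE), adjusted p = 0.0248), also under 1 CPM and not called without any one of cows 419, 756 or 3445 (adjusted p 0.0532 to 0.057), nor tested without cow 430, 782 or 829 or without the set B cows. Adipocyte markers CIDEC (-0.01 ± 0.30) and LPL (0.50 ± 0.24) were not called. Of 13 interferon-induced genes 4 were higher, among them CXCL10 from a median of 6.76 to 13.6 CPM (log2 fold change 1.4 ± 0.28 (SE), adjusted p = 0.00132) and CXCL9 (log2 fold change 1.17 ± 0.36 (SE), adjusted p = 0.0168), and 4 were lower, among them OAS1Y (log2 fold change -0.91 ± 0.18 (SE), adjusted p = 0.00122) and ISG15 (log2 fold change -0.89 ± 0.29 (SE), adjusted p = 0.0228). BST2, whose 2 identifiers share a name, was at 1.10 ± 0.20 for one and -0.72 ± 0.17 for the other. Without the set B cows 2 were higher and 1 lower, CXCL9 and ISG15 no longer being called (adjusted p 0.189 and 0.234). GBP2 (0.53 ± 0.20) and MX1 (-0.49 ± 0.17) lost their calls without 1 cow in 11 and 9 of 16 fits.

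Of all genes tested 296 moved the same way in all 16 cows. Those named here belong to none of the groups above. ABHD1, a hydrolase of the alpha/beta family, was at 27.7 to 207 CPM (median 59.8) at EL and 12.8 to 49 CPM (median 19.6) at ML (log2 fold change -1.64 ± 0.14 (SE), adjusted p = 5.21e-07), and TMC7, a TMC family membrane protein, fell from a median of 11 to 2.64 CPM (log2 fold change -1.78 ± 0.18 (SE), adjusted p = 4.22e-06). SMIM14 fell from a median of 272 to 122 CPM (log2 fold change -1.21 ± 0.14 (SE), adjusted p = 1.63e-05), and SEC23B, a coat protein of vesicles leaving the ER, fell from a median of 37.9 to 24.6 CPM (log2 fold change -0.96 ± 0.25 (SE), adjusted p = 0.00721). CGREF1, a secreted growth regulator, was at 2.09 to 7.21 CPM (median 4.29) at EL and 0.646 to 2.1 CPM (median 1.23) at ML (log2 fold change -1.75 ± 0.14 (SE), adjusted p = 5.08e-07). GLI1, the transcription factor at the end of hedgehog signalling, was low at 0.676 to 7.08 CPM (median 1.65) at EL and 0.18 to 2.14 CPM (median 0.603) at ML (log2 fold change -1.67 ± 0.16 (SE), adjusted p = 2.58e-06).

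The increases of this kind were led by MBOAT2, an acyltransferase of phospholipids, which was at 0.428 to 23.5 CPM (median 3.15) at EL and 8.41 to 61.8 CPM (median 22.8) at ML (log2 fold change 2.79 ± 0.35 (SE), adjusted p = 4.35e-05). RBP5, a retinol-binding protein, rose from a median of 28.0 to 66.6 CPM (log2 fold change 1.58 ± 0.28 (SE), adjusted p = 0.000649). The phosphatases DUSP10, at 2.84 to 7.11 CPM (median 3.9) at EL and 4.46 to 14 CPM (median 10.1) at ML (log2 fold change 1.13 ± 0.11 (SE), adjusted p = 2.58e-06), and DUSP26 (1.32 ± 0.22) act on MAP kinases. PIK3IP1, an inhibitor of PI3 kinase, rose from a median of 4.19 to 8.27 CPM (log2 fold change 1.08 ± 0.17 (SE), adjusted p = 0.000293), and GPRC5A, a receptor induced by retinoic acid, rose from a median of 6.69 to 12.4 CPM (log2 fold change 1.16 ± 0.28 (SE), adjusted p = 0.0044). The EL and ML ranges of each of these genes overlapped. Each was picked from the genes that moved the same way in every cow. That choice alone fixes the p of the exact sign-flip permutation test at 3.05e-05, so this p adds no support.

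Fert+ and Fert- cows were then compared for the size of the change. No gene passed the threshold in edgeR's quasi-likelihood test of the difference (0 of 13177, smallest adjusted p = 0.82), in which 750 genes had an unadjusted p under 0.05, and no gene was called either when the block, the gene filter or TMM (replaced by RLE factors) was dropped. The 5 named genes with the smallest p are given as values. PYCR1, of proline synthesis, changed by -2.4 in Fert+ and -0.91 in Fert- cows, and ASNS by -2.31 and -0.77. OVOS2 changed by 2.11 and 0.45, EBF1 (called over all cows with 0.53 ± 0.20, lost without 1 cow in 7 of 16 fits) by 1.17 and -0.05, and DDIT4 by -0.14 and 1.55. Each had an adjusted p of 0.819.

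Muscle of the same 16 cows at the same time-points served to ask which changes differed between tissues. In 4783 of 11243 genes tested in both (42.5%) the change differed between liver and muscle. PC, down-regulated in liver at ML, changed by 1.52 ± 0.17 in muscle (difference 3.23, adjusted p = 1.59e-11), and LDHA by 2.05 ± 0.24 (3.42, 7.05e-11), so that both moved in opposite directions. ANGPTL4 differed as well, with 0.35 in muscle (adjusted p of the difference 1.55e-08). The amino acid transporter SLC43A2, ZFAND5 and the proteasome regulator NFE2L1 were not called in liver (0.01 ± 0.14, 0.17 ± 0.08 and -0.04 ± 0.08) and changed in muscle by -3.42, -1.86 and -1.57.

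Respiratory chain genes moved in muscle and hardly in liver. Within the genes tested in both tissues 29.9% were higher and 32.5% were lower at ML in muscle, and of 71 respiratory chain genes 71 were higher there (median 0.58) against 1 in liver (median -0.09), with 68 of 71 differing between tissues. Proteasome genes were lower in muscle in 13 of 15 cases (median -0.54), and 11 of 15 differed. ER folding genes had a median of -0.25 in muscle, where 7 of 14 were lower, and 8 differed. Lipogenic genes also differed, in 7 of 9 tested in both, among them FASN (0.50 in muscle, adjusted p of the difference 0.00171), although SCD rose in muscle too (1.91) and did not pass (0.137). The 3 MHC class II genes had a median of 0.99 in muscle, where 3 of 3 were higher, and 0 passed the test of the difference. FKBP5 (-1.82) and UGP2 (-0.96) were lower in both.

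**Figure D5:**
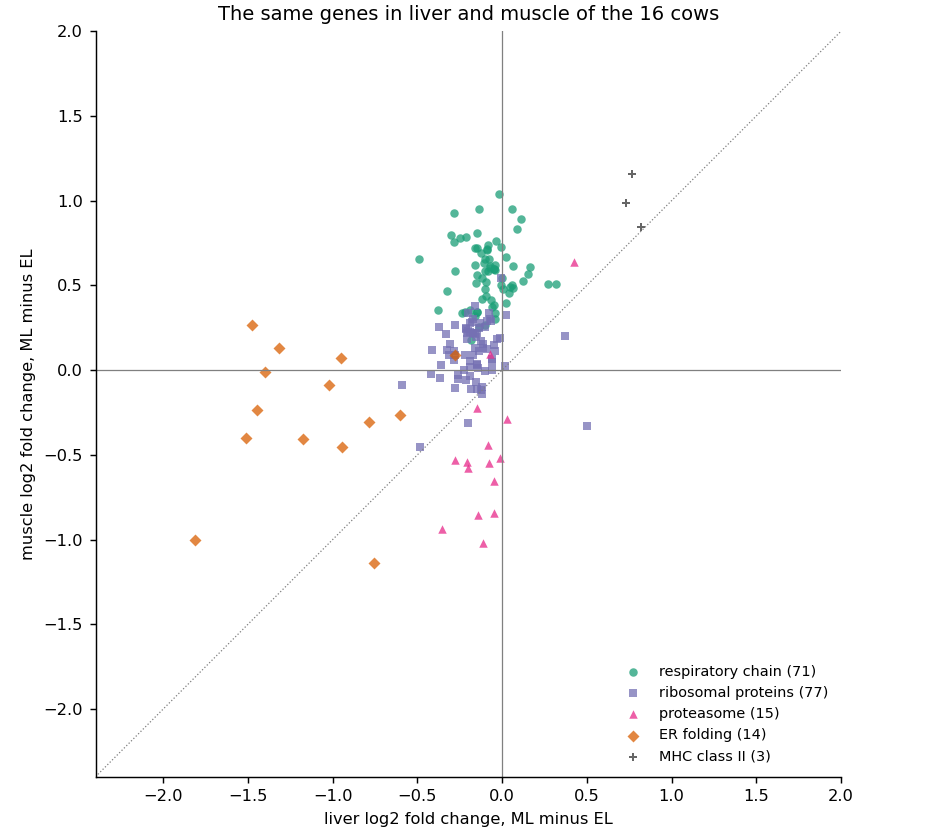
Log2 fold change at ML relative to EL in liver (x axis) and muscle (y axis) of the same 16 cows, with 1 point per gene for 5 lists and a dotted line where both are equal. Respiratory chain genes lie above 0 in muscle and around 0 in liver, proteasome genes mostly below 0 in muscle, and ER folding genes below 0 in liver.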

How the data were processed

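RNA-seq was carried out on liver and muscle biopsies of 16 cows at 3 time-points, of which the liver libraries at EL and ML are described here and muscle is used for comparison. Per the labels and the study's methods, STAR placed the reads, trimmed beforehand by Trimmomatic, on the UMD_3.1 genome, Samtools kept the proper pairs, and featureCounts gave the number of pairs per Ensembl gene. The submitters' processing notes also name CASAVA 1.8 and edgeR. The deposited files hold these counts per gene, not normalised, 1 file per library, and a count is a whole number of read pairs. The library kit did not mark strand, so that overlapping and antisense genes share reads. The series tables, with 96 further columns of counts that name no sample, were not used. No groups were inferred from the values: cow, tissue and time-point came from the labels.

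Genes were filtered with filterByExpr by time-point, scaled with TMM and tested by edgeR 4.0.16 (limma 3.58.1, R 4.3.3) with the robust quasi-likelihood test, cow as a block and Benjamini-Hochberg adjustment. The block rests on both libraries of a pair coming from the same animal. Residuals of same-cow pairs correlated with a median of 0.246 (-0.00846 to 0.543, 14 of 16 pairs above 0.1), against -0.0618 over 112 pairs of different cows of a genotype. Single genes were also tested by an exact two-sided sign-flip permutation test over 65536 sign changes of log2(CPM + 1), whose smallest p is 3.05e-05. Terms for genotype and tissue were tested in the same framework. Scripts were tested on simulated data. Python 3.11.15 with numpy 2.4.6, pandas 2.3.3, scipy 1.17.1 and matplotlib 3.10.9 made the tables and plots, and DESeq2 1.42.0 served as an alternative.

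Members, gene lists and tests were chosen with earlier results of these data known. Genes named are 32 key genes (3, GHR, CPT1A and FGF21, had no symbol here), per list up to 4 DE members in each direction with the largest change, plus the 2 of highest level where fewer than 3 were DE, the 12 highest and 12 lowest changes among DE genes of at least 5 CPM that moved the same way in all cows, the 10 smallest p-values, and the 5 smallest for each term. Genes named only because leaving out a cow changed their call were chosen after their values were seen. Symbols came from the study's printed lists (names only, 2160 identifiers of 24616), and coordinates and sequences are not used here. Alternatives were other scalings, filters, tools, dispersions, samples and cows; library totals, Fert- cows without cow 996, and the fit without cows 996 and 3847 were chosen after seeing the data. A few genes that the rule selects are not reported here.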

Additional observations from a re-analysis of the deposited data

Results flagged for a closer look

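The comparison of liver with muscle of the same cows gave 4783 genes whose change from EL to ML differed between the tissues by the test of the difference. The named genes with the smallest p in that test are given as muscle change minus liver change on the log2 scale. ZFAND5 differed by -2.03, SLC43A2 by -3.43 and NFE2L1 by -1.53, each lower at ML in muscle. PC differed by 3.23 and LDHA by 3.42, each higher at ML in muscle and lower in liver. Biopsies of both tissues came from the same animals at the same time-points, and the share of each cell type in them was not measured.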

How the results depend on the processing

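The paired fit gave 4889 DE genes and the fit with no replicate block 4502, of which 4180 were shared. Other settings gave 3456 (common dispersion and exact test) to 5749 (without cows 996 and 3847), and leaving out 1 cow gave 4037 to 5471, lowest without cow 756 and highest without cow 996. The count moved by more than 1.5 times in Fert+ cows alone (2446), in Fert- cows alone (593), in Fert- cows without cow 996 (1950), without the 5 set B cows (2801), and with a fold threshold (391). The first 4 of these use 7 to 11 cows in place of 16. All genes DE over 16 cows kept their direction wherever they were tested, except 2 of 4851 in Fert- cows and 2 of 4860 in Fert- cows without cow 996. Among named genes EBF1 reversed there, with -0.0533 and -0.0349. An exact permutation p under 0.05 was found for 157 of 186 named genes, 157 with a pseudocount of 0.1 and 153 with library totals. The tissue term was called in 4435 (no block) to 4905 (no gene filter) genes and the fertility term in 0 under each of 4 settings. The block changed no other count by over 1.5 times. Depth differed by less than 2-fold between libraries, and genes removed by the filter were not tested.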

Other observations

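Liver of the same 16 cows was also sampled in late pregnancy (LP), and levels of some of the genes above at that time-point are given as values, with no test. LP levels were scaled with TMM factors of all 48 liver libraries, and EL and ML levels with those of the 32 libraries compared. Small gaps between LP and the other time-points are therefore uncertain. HP was at 54.5 to 41764 CPM (median 596) at LP, against a median of 13405 CPM at EL and 438 CPM at ML. LBP was at 174 to 1934 CPM (median 271), with medians of 943 CPM and 125 CPM at EL and ML. GRP78 was at 279.7 to 958 CPM (median 584), with medians of 709 CPM and 321 CPM. On these scalings the medians of HP, LBP and GRP78 at LP lay below those at EL, by a small margin for GRP78.

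Metabolic genes differed in where the LP level lay. PC was at 254 to 2789 CPM (median 500.3) at LP, with medians of 894 CPM at EL and 286 CPM at ML. ANGPTL4 was at 11.9 to 180.5 CPM (median 70.5), with 75.3 CPM and 13.4 CPM. SCD was at 1.52 to 137 CPM (median 29.7), with 10.9 CPM and 113 CPM. IGF-I was at 1.63 to 32.5 CPM (median 15.7), with 4.88 CPM and 12.9 CPM. INHBE was at 9.78 to 171 CPM (median 68.8), with 56.2 CPM and 8.49 CPM.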
